A study of Mus musculus with 4 samples.

Results

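The guanylate-binding proteins (GBPs) were followed in activated mouse splenic B cells as the 9 genes Gbp2, Gbp3, Gbp4, Gbp5, Gbp6, Gbp7, Gbp8, Gbp9 and Gbp10, chosen by their symbols from the 55401 genes of the deposited count table. Gbp2, Gbp3, Gbp5 and Gbp7 lie in a cluster on chromosome 3, and the other 5 lie in a cluster on chromosome 5. All 9 were found and all 9 had enough reads to be tested. There were 4 libraries: 2 from wild-type C57BL/6 mice and 2 from C57BL/6 mice whose label gives a conditional knockout (cKO), in B cells, of Adar1. This is the enzyme that edits adenosine to inosine in double-stranded RNA. The labels do not name the Cre driver, the deleted exons or the age of the mice, nor do they say if each library had its own animal. B cells of every library were purified from spleen with anti-CD43 beads and grown for 36 h with 10 µg/ml of anti-IgM, an antigen substitute, together with 1 µg/ml of anti-CD40, a substitute for T-cell help.

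GBPs are large GTPases of the dynamin superfamily that interferons induce, interferon gamma most of all and type I interferons as well. In macrophages and other infected mouse cells they gather on vacuoles that hold parasites and on bacteria in the cytosol, and they help to break these membranes and to expose bacterial products to inflammasomes. Their promoters hold gamma-activated sites (GAS) and interferon-stimulated response elements (ISREs), DNA motifs through which interferon signals act, and IRF1 is a known activator that binds ISREs.

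The upstream sequences of the chromosome 3 genes are shown because the genes share one cluster, and because 4 of these 5 genes were called higher and 1, Gbp2b, was not. RefSeq promoter entries (GRCm38.p6) were found for 4 of the 9 members, Gbp2, Gbp3, Gbp5 and Gbp7, and for Gbp2b, a family gene between Gbp3 and Gbp2 that is not among the members. Gbp4, Gbp6, Gbp8, Gbp9 and Gbp10 had no entry. Each line below gives the 250 bases before the RefSeq transcript start, 5′ to 3′ on the plus strand. Capitals mark matches to the ISRE core, which is GAAA, any 2 bases and GAAA again, or on the other strand TTTC, any 2 bases and TTTC, and to GAS, searched as TTCNNNGAA, which reads the same on both strands. The windows are chr3:142496684-142496933 for Gbp5, chr3:142530086-142530335 for Gbp7, chr3:142559794-142560043 for Gbp3, chr3:142594597-142594846 for Gbp2b and chr3:142620413-142620662 for Gbp2.
Gbp5: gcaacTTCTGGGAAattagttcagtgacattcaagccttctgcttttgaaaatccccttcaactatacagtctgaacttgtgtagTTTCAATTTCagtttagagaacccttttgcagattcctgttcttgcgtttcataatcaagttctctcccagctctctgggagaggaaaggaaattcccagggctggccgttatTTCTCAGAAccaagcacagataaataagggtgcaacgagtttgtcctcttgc
Gbp7: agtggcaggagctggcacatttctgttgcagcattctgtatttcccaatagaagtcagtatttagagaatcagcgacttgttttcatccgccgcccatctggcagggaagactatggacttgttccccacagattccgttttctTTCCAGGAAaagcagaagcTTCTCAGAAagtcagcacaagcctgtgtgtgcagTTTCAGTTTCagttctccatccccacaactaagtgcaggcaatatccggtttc
Gbp3: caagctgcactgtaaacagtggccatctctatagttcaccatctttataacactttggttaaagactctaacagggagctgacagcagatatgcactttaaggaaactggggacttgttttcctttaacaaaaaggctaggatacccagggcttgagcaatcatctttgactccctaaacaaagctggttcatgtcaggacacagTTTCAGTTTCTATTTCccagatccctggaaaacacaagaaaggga
Gbp2b: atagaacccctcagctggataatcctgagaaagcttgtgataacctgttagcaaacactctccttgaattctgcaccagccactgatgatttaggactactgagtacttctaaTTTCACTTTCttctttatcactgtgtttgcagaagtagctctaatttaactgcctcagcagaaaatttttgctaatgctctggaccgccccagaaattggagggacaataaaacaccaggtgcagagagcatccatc
Gbp2: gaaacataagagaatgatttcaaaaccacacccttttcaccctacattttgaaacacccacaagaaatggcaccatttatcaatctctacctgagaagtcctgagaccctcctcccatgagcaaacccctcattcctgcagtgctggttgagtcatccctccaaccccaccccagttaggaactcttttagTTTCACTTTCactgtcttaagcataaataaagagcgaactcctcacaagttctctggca

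Every one of these 5 windows held an ISRE core, which 2.98% of the 32851 RefSeq promoter windows of that length hold. In Gbp2 the match TTTCACTTTC lay 59 to 50 bases before the start. In Gbp7 TTTCAGTTTC lay 53 to 44 bases before it. Gbp3 had a pair of matches that overlap, TTTCAGTTTC and TTTCTATTTC, between 45 and 30 bases before its start, so the pair is one run of letters. The matches of Gbp5 (TTTCAATTTC, 165 to 156 bases before) and Gbp2b (TTTCACTTTC, 137 to 128 bases before) lay farther from the start. GAS matches were found for Gbp5 and Gbp7, 2 in each window, and 7.02% of all windows hold at least 1. Gbp3 has another RefSeq start in the table, whose window held neither motif. The transcript start used lies inside the deposited gene for Gbp5 (2956 bases past its first base), Gbp2 (61 bases) and Gbp3 (18 bases). The matches of Gbp5 and Gbp2 therefore lie within the deposited genes, and those of Gbp7, Gbp3 and Gbp2b lie before them. A match is a string of letters and does not show that a factor binds there.

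**Figure D1:**
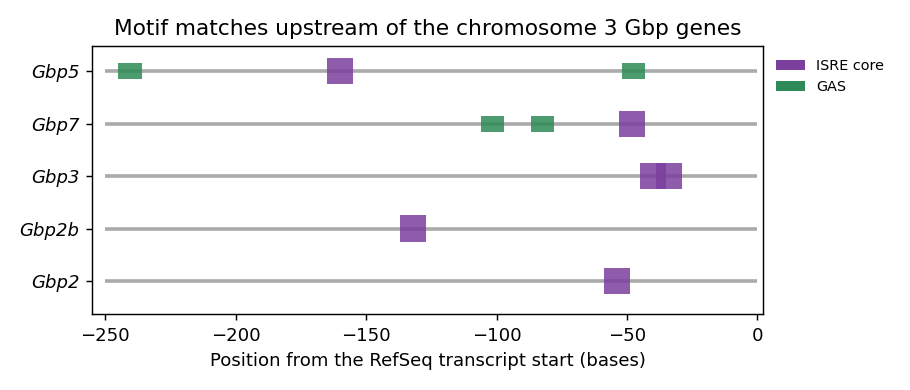
ISRE core and GAS matches (colored bars) in the 250 bases before the RefSeq transcript start of the chromosome 3 genes, with the position in bases from the start on the x axis. Each of the 5 windows has an ISRE core, nearest to the start in Gbp3, Gbp7 and Gbp2, and GAS matches are in Gbp5 and Gbp7.

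Library totals lay between 17327480 and 19669651 counts, and 14180 genes were tested. The gene-level count of Adar, the targeted gene, did not fall in the libraries labelled cKO: it stood at 137 and 149.97 CPM in wild type and at 218 and 233 CPM in those libraries, an increase of 0.65 ± 0.0627 on the log2 scale (edgeR adjusted p = 3.39e-08). The labelled deletion is therefore not checked by these counts, the libraries are called cKO-labelled, and every direction below rests on that label. Chrnb2 overlaps Adar on the opposite strand. Changes are given on the log2 scale as the cKO-labelled value less the wild-type value, ± SE, with n = 2 libraries per genotype. They come from the quasi-likelihood test of edgeR, and p-values were adjusted over all genes tested by the method of Benjamini and Hochberg. A gene was called at an adjusted p under 0.05. CPM values are counts brought to the same library total with TMM factors.

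All 9 GBP genes rose in the cKO-labelled libraries, by 1.89-fold (Gbp3) to 6.28-fold (Gbp6). The background of the comparison was 12.2% of genes called higher and 9.54% called lower. The median change of the 9 was 1.33, against -0.01 over all genes tested. At least 2-fold rises were called for 8 of the 9, all but Gbp3, and for 4.06% of all genes. For each of the 9 genes both cKO-labelled libraries stood above both wild-type libraries, which was also true of 29.2% of all genes tested. In bulk RNA, a change in the number of cells that express a gene and a change of its RNA per cell cannot be told apart.

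Markers of B cells and of other cell types were measured in the same libraries, since GBPs are not specific to B cells. The 6 B-cell markers summed to 4440 and 4420 CPM in wild type and 3360 and 3460 CPM in cKO-labelled libraries, with 5 of 6 lower. Of 4 tested dendritic cell markers 3 were higher, and the 5 listed summed to 58.3 and 57 CPM in wild type and 108 and 113 CPM in cKO-labelled libraries. The 6 macrophage and monocyte markers, of which 1 of 5 tested was lower, summed to 128 and 123 CPM against 46.4 and 55.7 CPM. Summed T-cell, NK-cell, neutrophil, erythroid and stromal markers stayed at or below 4.70 CPM in every library, with the neutrophil marker Ly6g at 0 in all. Of the tested markers, 1 of 2 for NK cells, 1 of 2 for neutrophils and 2 of 3 for erythroid cells were higher. The part of these cells in the rise of the 9 genes was not tested.

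Levels were compared between genes per length, with the authors' FPKM values (reads scaled to exonic length and library total). Gbp2 was the most abundant in both genotypes, at 34.1 ± 1.20 FPKM in wild type and 108.9 ± 19.7 FPKM in cKO-labelled libraries (mean ± SD, n = 2). In wild type Gbp3 (22.0 FPKM), Gbp9 (16.1), Gbp5 (8.59), Gbp7 (6.97) and Gbp4 (6.43) followed in FPKM, each separated from the next by more than the sum of both SDs. Gbp8 at 3.23 ± 0.438 FPKM and Gbp10 at 2.62 ± 0.368 FPKM did not differ beyond their spread, and Gbp6 was lowest at 1.27 ± 0.120 FPKM. In the cKO-labelled libraries the first 3 places were the same, with Gbp3 at 41.6 FPKM and Gbp9 at 35.6 FPKM. Gbp5 (18.8 FPKM), Gbp7 (17.6 FPKM) and Gbp4 (17.5 FPKM) came next. Gbp7 differed from neither of these beyond their spread, while Gbp5 and Gbp4 lay 1.38 FPKM apart, against 1.15 FPKM for the sum of both SDs. Gbp10 stood at 11.8 FPKM, and Gbp6 (7.95 FPKM) and Gbp8 (7.50 FPKM) did not differ beyond theirs.

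**Figure D2:**
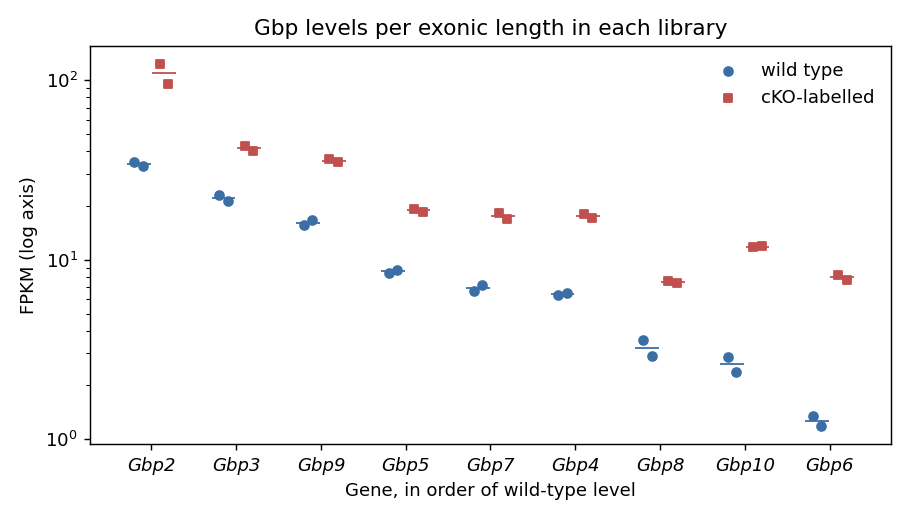
FPKM of each of the 9 genes (log axis) in every library, with circles for wild type, squares for cKO-labelled libraries and a line at each mean of 2. Both cKO-labelled libraries lie above both wild-type libraries for every gene, and Gbp2 is highest in all 4.

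The make-up of the family's RNA was set out per library. As shares of the summed FPKM of the 9 genes, Gbp2 held 34.1% and 33.3% in the wild-type libraries and 43.1% and 38.1% in the cKO-labelled ones. Gbp3 held 22.2% and 21.2% in wild type, against 15.1% and 16.1% with the cKO label. Gbp6 and Gbp10 had the lowest mean FPKM in wild type, though Gbp10 did not differ from Gbp8 beyond their spread. Together Gbp6 and Gbp10 went from 4.23 and 3.54 FPKM to 19.9 and 19.6 FPKM. The groups did not overlap for any of these values. Such shares carry no test here, and a larger share of one gene lowers the others by construction.

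Among the chromosome 3 genes, Gbp2 (ENSMUSG00000028270, chromosome 3, 142620602 to 142638008, GRCm38, plus strand) changed most. It encodes a GTPase with a CaaX lipid anchor that mouse cells need to control Toxoplasma gondii. It stood at 88.4 and 83.7 CPM in wild type and at 309 and 239 CPM in the cKO-labelled libraries. Both cKO-labelled libraries were far above wild type, and they also differed from each other by 1.29 times, whereas the pair agreed within 1.08 times for each of the other 8 genes. The change was 1.67 ± 0.0845 (adjusted p = 3.21e-13). DESeq2 gave the same change with a larger SE, 1.67 ± 0.186 (adjusted p = 1.8e-17).

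Gbp7 (ENSMUSG00000040253, chromosome 3, 142530342 to 142550149), linked in mouse macrophages to assembly of the phagocyte NADPH oxidase, stood at 37.8 and 40.6 CPM in wild type. In the cKO-labelled libraries it stood at 102 and 94.9 CPM. The groups did not overlap, and the change was 1.33 ± 0.0714 (adjusted p = 1.01e-12).

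Gbp5 (ENSMUSG00000105504, chromosome 3, 142493978 to 142522344) also carries a CaaX anchor and has been linked to NLRP3 inflammasome assembly in mouse macrophages. Its wild-type values were 56.2 and 58.0 CPM and its cKO-labelled values 127 and 123 CPM. Both pairs were tight, and the change was 1.13 ± 0.0637 (adjusted p = 2.42e-12).

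Gbp3 (ENSMUSG00000028268, chromosome 3, 142560026 to 142573209), a GTPase found on parasite vacuoles, stood at 74.7 and 69.2 CPM in wild type. Its cKO-labelled libraries held 141 and 131 CPM. They lay above wild type without overlap, with a change of 0.92 ± 0.0651 (adjusted p = 1.55e-10). This was the smallest change of the 9 genes.

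Gbp2b (ENSMUSG00000040264), known as mouse Gbp1 and encoded between Gbp3 and Gbp2, was the other expressed gene of that cluster. Its 2 wild-type libraries held 124 and 124 counts and the cKO-labelled ones 154 and 143, or 7.20 and 6.31 CPM against 8.55 and 8.19 CPM. The libraries did not overlap, but the change of 0.31 ± 0.187 was not called (adjusted p = 0.268). Whether it differs from the changes of its neighbours was not tested. Its upstream window above holds an ISRE core with the same letters as that of Gbp2, at a different distance from the start. Gbp2-ps, a pseudogene beyond Gbp2, had 0 counts in every library.

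On chromosome 5, Gbp6 (ENSMUSG00000104713, chromosome 5, 105270702 to 105293698, minus strand) and its close copy Gbp10 (ENSMUSG00000105096, chromosome 5, 105215699 to 105239533, minus strand) changed most of the 9 genes. Both are annotated in the deposited table with defence against protozoa. Wild-type libraries held 139 and 138 counts of Gbp6, cKO-labelled ones 874 and 803, which is 8.07 and 7.02 CPM against 48.5 and 46.0 CPM. Of Gbp10 the wild-type libraries held 193 and 180 counts, the cKO-labelled ones 819 and 801, which is 11.2 and 9.15 CPM against 45.5 and 45.9 CPM. For both genes the gap between genotypes was several times larger than any gap within one. The change was 2.65 ± 0.115 for Gbp6 (adjusted p = 2.01e-14) and 2.17 ± 0.113 for Gbp10 (adjusted p = 5.86e-13). The ratio of scaled counts was 6.30 for Gbp6 (95% exact interval 5.54 to 7.18) and 4.52 for Gbp10 (4.04 to 5.07). These intervals pool the counts of both libraries of a genotype, so they cover counting error at most and leave out the spread between libraries. PCR can copy a molecule into many reads, which the intervals do not cover either.

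Gbp4 (ENSMUSG00000079363, chromosome 5, 105115767 to 105139586), reported in mouse cells to restrain IRF7 and so interferon alpha production, stood at 47.9 and 48.8 CPM in wild type. It stood at 134 and 127 CPM in the cKO-labelled libraries. The change was 1.44 ± 0.0651 (adjusted p = 4.39e-14), with no overlap. Gbp9 (ENSMUSG00000029298, chromosome 5, 105077630 to 105139539), annotated with defence against protozoa, went from 81.1 and 85.4 CPM to 187 and 181 CPM, a change of 1.14 ± 0.0612 (adjusted p = 9.50e-13).

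Gbp8 (ENSMUSG00000034438, chromosome 5, 105014150 to 105139540), one of the less studied members, was the member with the fewest reads in the cKO-labelled libraries. Its counts were 211 and 198 with wild type, 473 and 442 with the cKO label, or 12.2 and 10.1 CPM against 26.3 and 25.3 CPM. The wild-type pair differed by 1.22 times, the widest spread seen in wild type, shared with Gbp10. The groups did not overlap, and the change was 1.21 ± 0.129 (adjusted p = 1.58e-07).

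The counts of some members could have been divided between near-identical genes. Of the distinct 50-base stretches in GENCODE M21 transcripts of Gbp10, 84.1% also occur in another gene, and 73.3% occur in Gbp6. For Gbp6 the shares were 70.7% and, in Gbp10, 45.9%. The annotated gene Gm43302, whose span covers Gbp10 and Gbp6, shares 1792 exonic bases with Gbp10 and 1726 with Gbp6 and had 0 counts in every library. Neither the read length nor the handling of reads that match several places is given in the sources used here. Therefore the levels of Gbp6 and Gbp10, and the difference between their changes, are uncertain. Summed over both genes, which does not depend on how reads were divided between them but would still lack any that were discarded, the libraries held 19.3 and 16.2 CPM in wild type and 94.0 and 91.9 CPM in cKO-labelled libraries, a 5.25-fold difference of means.

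The other members shared less. At 50 bases the shared portion was 18.1% for Gbp8, 12.7% for Gbp7 (mostly with Gm43802, which had 0 counts), 8.05% for Gbp9 and 7.78% for Gbp4. It was 3.75% or less for Gbp3, Gbp2 and Gbp5. At 100 bases it was 64.5% for Gbp6, 73.5% for Gbp10, 10.0% for Gbp7 and at most 4.39% for the other members. The deposited spans of Gbp4, Gbp8 and Gbp9 overlap, but at most 61 exonic bases of any of them are shared with the others.

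**Figure D3:**
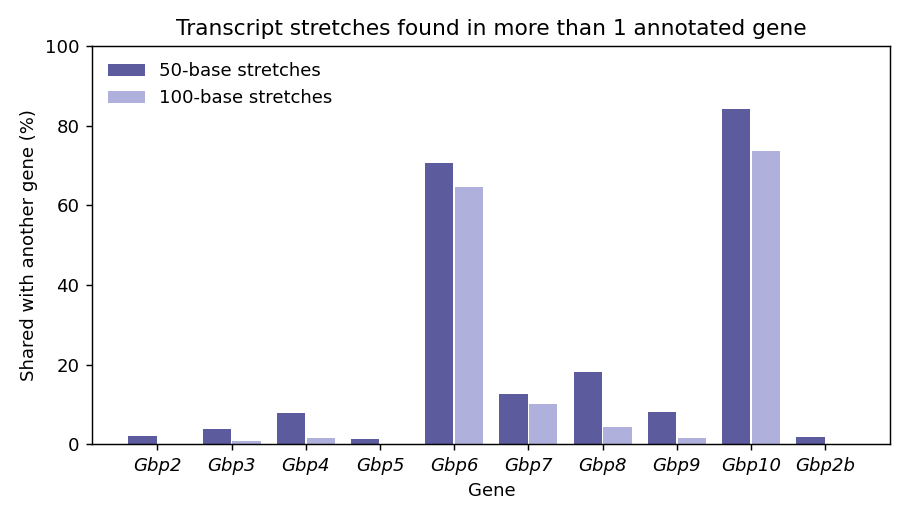
Percent of the distinct 50-base and 100-base stretches of each gene's GENCODE M21 transcripts that occur in transcripts of another gene, for the 9 genes and Gbp2b. Gbp6 and Gbp10 stand at 70.7% and 84.1% at 50 bases, and every other gene is at 18.1% or less.

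Summed over the 4 chromosome 3 members, the libraries held 257 and 251.5 CPM in wild type and 679 and 588 CPM in cKO-labelled libraries, a 2.49-fold difference of means. The 5 chromosome 5 members held 160.5 and 160.4 CPM in wild type and 442 and 425.5 CPM in cKO-labelled libraries, a 2.70-fold difference. In order along chromosome 5, the changes were 1.21 for Gbp8, 1.14 for Gbp9, 1.44 for Gbp4, 2.17 for Gbp10 and 2.65 for Gbp6. On chromosome 3 they were 1.13 for Gbp5, 1.33 for Gbp7, 0.92 for Gbp3, 0.31 for Gbp2b (not called) and 1.67 for Gbp2. Gbp11, a polymorphic pseudogene past Gbp6, had counts of 5 and 3 with wild type, then 2 and 0 with the cKO label, too few to test.

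The nearest tested genes outside the clusters were read against all genes tested, of which 21.7% were called in either direction and 32.3% had an unadjusted p under 0.05. Of the 10 genes flanking the chromosome 3 cluster, 5 on either side, 0 were called by edgeR's quasi-likelihood test, 3 had an unadjusted p under 0.05, and DESeq2 called 0. Rap1gds1, Gm43162, Tspan5 and Eif4e lay 3418.8 to 3934.3 kb before that cluster, and Lmo4 lay 1550.5 kb after it. The chromosome 5 flanking genes all lay within 582.9 kb of their cluster, so the sets are not at like distances. Gm43162, at 0.464 and 0.763 CPM in wild type, changed by 1.18 ± 0.501 (edgeR adjusted p = 0.101). It lies within the span of Rap1gds1 on the same strand, and Rap1gds1 changed by -0.03. Of the 10 flanking the chromosome 5 cluster, edgeR called 2 higher and 2 lower, 5 had an unadjusted p under 0.05, and DESeq2 called 1, Lrrc8d. The 4 calls among these 20 genes are near the share over all genes, but all 4 lay beside the chromosome 5 cluster. There 4 of 10 genes were called, against 21.7% of all genes, and this difference was not tested. The higher ones were the transporter gene Abcg3, at 7.25 and 7.63 CPM in wild type and 11.3 and 9.68 CPM in cKO-labelled libraries (0.50 ± 0.174, adjusted p = 0.0436), and the zinc finger gene Zfp951 (0.74 ± 0.210, adjusted p = 0.0129). The lower ones were the subunit genes of volume-regulated anion channels Lrrc8d (-0.37 ± 0.0661, adjusted p = 0.000222) and Lrrc8b (-0.37 ± 0.117, adjusted p = 0.0239). By DESeq2 the adjusted p was 0.166 for Abcg3, 0.0557 for Zfp951 and 0.111 for Lrrc8b. With a library left out, 1 library of its genotype remains and is assumed to vary like those of the other genotype, so fewer calls follow in part from fewer samples. The call of Abcg3 was lost without wild-type library 1 (0.46, adjusted p = 0.166), wild-type library 2 (0.53, adjusted p = 0.0983) or cKO-labelled library 1 (0.38, adjusted p = 0.232). The call of Zfp951 was lost without wild-type library 1 (0.52, adjusted p = 0.138) or cKO-labelled library 2 (0.59, adjusted p = 0.0925). That of Lrrc8b was lost without wild-type library 2 (-0.28, adjusted p = 0.226) or cKO-labelled library 2 (-0.35, adjusted p = 0.0738).

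**Figure D4:**
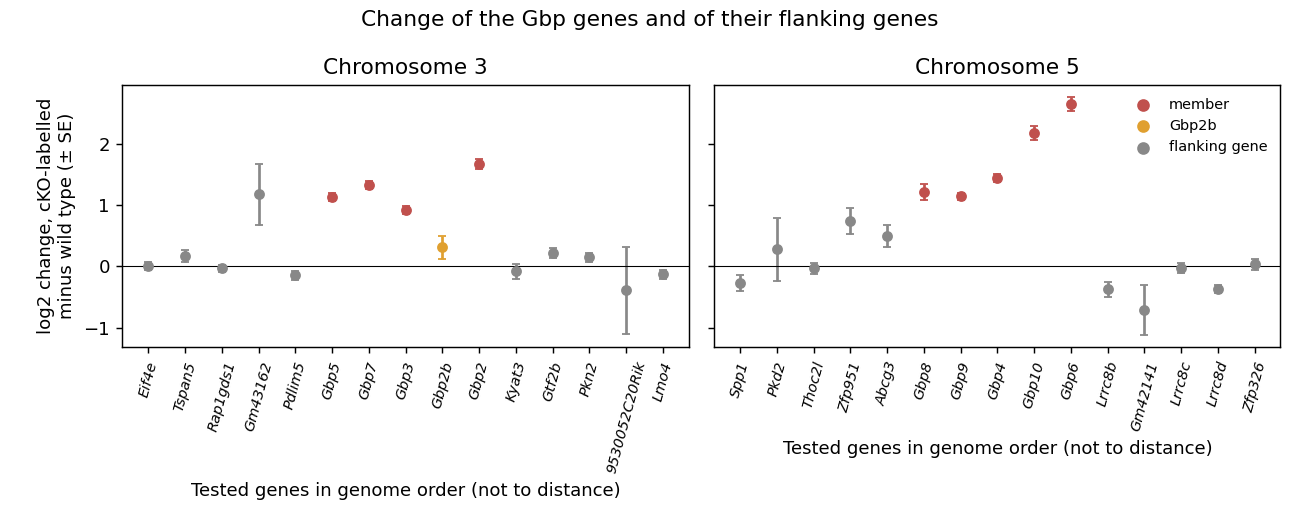
log2 change ± SE (y axis) of the 9 genes, Gbp2b and the 5 nearest tested genes on either side of each cluster, in genome order (x axis, not drawn to distance). The 9 genes lie between 0.92 and 2.65 and Gbp2b at 0.31. The flanking genes lie between -0.39 and 1.18 on chromosome 3 and between -0.71 and 0.74 on chromosome 5. The called ones among them lie between -0.37 and 0.74. Gm43162 (1.18 ± 0.501), which was not called and sits within the span of Rap1gds1, lies above Gbp3, Gbp5 and Gbp9.

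Of the 16 genes that carry interferon signals to GBP promoters or restrain them, 10 were higher and 0 lower, with a median change of 0.23. The shares over all genes tested were 12.2% called higher and 9.54% called lower. This list, like the others, was chosen with earlier results of these data known. Stat2, a transcription factor of the type I pathway, stood at 75.8 and 75.2 CPM in wild type and 167 and 175 CPM in cKO-labelled libraries (1.18 ± 0.0613, adjusted p = 5.25e-13). Irf1, which binds GBP promoters in mouse cells and was singled out after its value was seen, changed by 0.75 ± 0.0620 (adjusted p = 2.50e-09). Gm17334, with 93 to 175 counts per library, overlaps Irf1 on the opposite strand. Usp18, which restrains the type I receptor, stood at 13.6 and 14.5 CPM in wild type and at 120 and 127 CPM in cKO-labelled libraries (3.13 ± 0.0793, adjusted p = 4.87e-18). The receptor chain genes Ifnar1, Ifnar2 and Ifngr1 were not called, with changes of 0.02, -0.05 and 0.21. The remaining chain of the list, Ifngr2, was called higher at 0.19 ± 0.0691 (adjusted p = 0.0479), and this call was lost with any library left out (adjusted p from 0.0916 to 0.348, changes from 0.15 to 0.23). Without wild-type library 2 the count of higher genes was 7.

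The immunity-related GTPases are a second interferon-induced family that acts on the same vacuoles in mouse cells. Of 10 tested, 10 were higher, against 12.2% of all genes tested. Their median change was 1.55, with a range from 0.44 to 3.90. Irgm1, a regulator of the family, rose from 89.1 and 91.0 CPM to 261 and 259 CPM (1.53 ± 0.0597, adjusted p = 3.54e-15). Iigp1, an effector loaded on vacuoles, stood at 2.61 and 2.29 CPM in wild type and at 42.2 and 30.6 CPM in cKO-labelled libraries (3.90 ± 0.179, adjusted p = 5.42e-14). Tgtp2, which has the near copy Tgtp1 in the list and overlaps Olfr56 on the opposite strand, changed by 2.45 ± 0.0992 (adjusted p = 5.78e-15). The 9 GBP genes had a range from 0.92 to 2.65, and the difference between the families was not tested.

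Among 8 tested relatives of the dynamin superfamily, 4 were higher and 1 lower, against 12.2% and 9.54% of all genes tested. The antiviral GTPase genes Mx1 (3.15 ± 0.0983, adjusted p = 1.00e-16) and Mx2 (2.65 ± 0.144, adjusted p = 1.26e-12) and the very large inducible GTPase gene Gvin1 (1.44 ± 0.138, adjusted p = 3.24e-08) were higher. The atlastins Atl1, Atl2 and Atl3, which fuse membranes of the endoplasmic reticulum, were not called, at -0.41, 0.04 and 0.05. The dynamin gene Dnm3, singled out after its value was seen, was called higher (1.17 ± 0.381, adjusted p = 0.0297), but its cKO-labelled libraries held only 38 and 68 counts, and the adjusted p was 0.399 without cKO-labelled library 2, 0.0766 without wild-type library 1 and 0.0889 without wild-type library 2. Dnm2, likewise singled out, was the lower gene (-0.18 ± 0.0596, adjusted p = 0.0355, with Tmed1 on the opposite strand). Its adjusted p was 0.177 without wild-type library 1, 0.0569 without wild-type library 2 and 0.212 without cKO-labelled library 1.

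Genes of the machinery that loads or lipidates GBPs were called about as often as all genes tested (21.7%), at 2 of 12 and 1 of 6. ATG8 conjugation is needed in mouse cells to place GBPs on vacuoles. Of 12 genes of this machinery, its ATG8 proteins and their cargo, 1 was higher, the cargo receptor gene Sqstm1 (0.58 ± 0.0649, adjusted p = 3.64e-07, with Mrnip on the opposite strand), and 1 lower. The lower gene was Map1lc3b (-0.21 ± 0.0698, adjusted p = 0.0317), whose call was lost without wild-type library 2 (adjusted p = 0.249) or cKO-labelled library 1 (0.191). Of 6 genes of CaaX prenylation, 1 was higher: Pggt1b, the subunit that directs geranylgeranyl transfer, at 0.18 ± 0.0630 (adjusted p = 0.0409). That call was lost with any library left out (adjusted p from 0.0502 to 0.287).

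Downstream of GBPs, 3 of 8 tested inflammasome and pyroptosis genes were higher and 0 lower, with a median of 0.24. Over all genes tested, 12.2% were called higher and 9.54% lower, and the difference from this share was not tested. Casp1 went from 83.4 and 79.3 CPM to 108 and 104 CPM (0.38 ± 0.0628, adjusted p = 7.14e-05). Gsdmd, the pore protein of pyroptosis, changed by 0.41 ± 0.0824 (adjusted p = 0.000609). Counts of Il1b were 4 and 6 with wild type, then 70 and 58 with the cKO label (3.70 ± 0.465, adjusted p = 1.97e-06). Casp4, the receptor for lipopolysaccharide that GBPs help to engage, and Aim2 were not called, at 0.09 and 0.07. Of 6 NADPH oxidase genes, Cybb was higher (0.48 ± 0.0573, adjusted p = 8.97e-07) and Ncf4 lower (-0.21 ± 0.0573, adjusted p = 0.00927). In either direction, 21.7% of all genes tested were called.

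**Figure D5:**
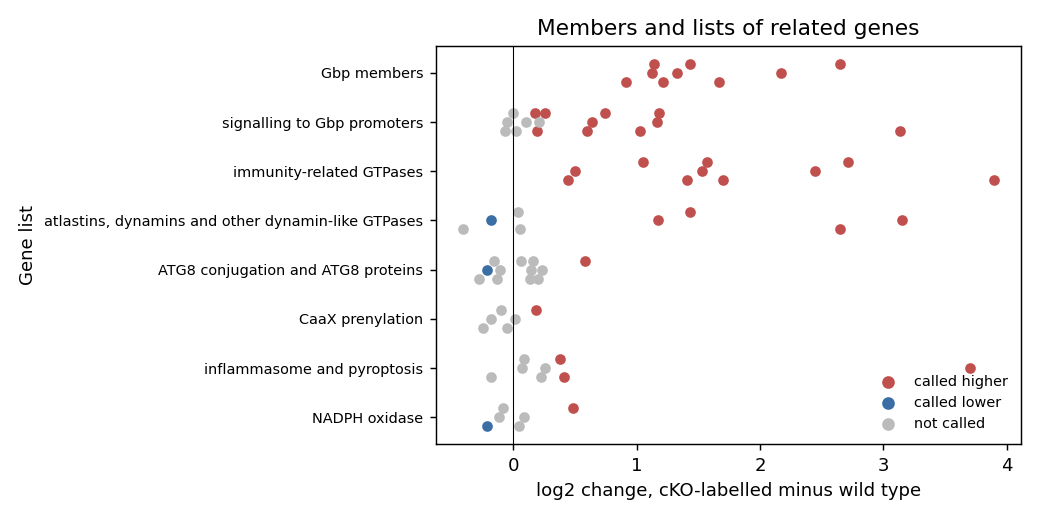
log2 change (x axis) of each tested gene of the GBP family and of the related gene lists (rows), with red for called higher, blue for called lower and gray for not called at an adjusted p of 0.05. All 9 GBP genes and all 10 immunity-related GTPases tested are red, and the ATG8, prenylation and NADPH oxidase lists lie mostly near 0.

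The genes closest to the mean pattern of the 9 members over the 4 libraries were Zbp1 (distance 0.049), Gdpd1 (0.052) and Il10 (0.060). Distance was Euclidean, on log2 CPM centred per gene, with a prior count of 2 added, which shrinks changes of genes with few counts. Zbp1, a sensor of left-handed nucleic acids, stood at 77.4 and 73.1 CPM in wild type and at 223 and 216 CPM in cKO-labelled libraries (1.55 ± 0.0615, adjusted p = 4.48e-15). Il10, a cytokine gene of activated B cells, changed by 1.49 ± 0.135 (adjusted p = 1.21e-08). Gdpd1, a phospholipase gene, was at 0.174 and 0.153 CPM in wild type, the level of 3 counts. Its change of 1.95 ± 0.751, which the prior count shrinks in this distance, was not called (adjusted p = 0.0682). Of the members themselves, Gbp4 was nearest to their mean (0.108) and Gbp6 farthest (1.12). With 4 libraries in 2 groups, such likeness reflects mainly the difference between genotypes.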

How the data were processed

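Poly(A) RNA of 4 libraries was sequenced after RNeasy extraction, NEB poly(A) selection and preparation with the NEBNext Ultra RNA kit, per the labels' protocols. The submitters' processing notes name HTSeq 0.6.1, HISAT2 2.0.1, cutadapt 1.9.1, bcl2fastq 2.17.1.14 and GRCm38, without roles, settings, strand handling or annotation. The authors deposited raw read counts per gene and, beside them, FPKM values. The deposited FPKM equal the count per exonic length and library total within 0.005.

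Counts were tested with edgeR 4.0.16 (R 4.3.3). Genes passed filterByExpr with a minimum count of 10 and a minimum total of 15, libraries were scaled by TMM, and the quasi-likelihood test compared the genotypes over 4 libraries, with Benjamini-Hochberg adjustment over 14180 genes. Each SE is the size of the change over the square root of F, and can understate counting error in genes of few reads. A single count was worth 0.0509 to 0.0580 CPM. Replicate libraries differed beyond sampling noise, with a chi-square per gene of 9.23 in wild type and 4.66 in cKO-labelled libraries, and were kept apart. P-values measure only the spread among these libraries, which may be technical. The fit moderated each gene's spread towards a trend over all genes tested. The p-value and SE of a gene therefore do not rest on its own libraries alone. Alternatives were DESeq2 1.42.0, its size factors, no low-count filter, a replicate block and leaving out each library, where the lone library of a genotype is assumed to vary like the other pair. Coordinates are those of the deposited table. Exon overlaps and shared stretches came from GENCODE M21, on the same build.

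Members and lists were chosen with earlier results of these data known. Named genes were the members, Adar, Gbp2b and Gbp11, the 3 called genes of smallest adjusted p per list, called flanking genes and the 3 nearest in pattern. Genes that this rule or a list names but that are not described are not reported here.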

Additional observations from a re-analysis of the deposited data

How the results depend on the processing

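All 9 GBP genes were called higher and 0 lower in every one of the 8 alternatives. Over these the change lay between 0.86 and 0.97 for Gbp3 and between 2.54 and 2.74 for Gbp6, and the largest adjusted p of any member was 1.64e-07 (Gbp8). Gbp2 moved most with a library left out, from 1.47 to 1.84. Over all genes, 1353 were lower by edgeR and 795 by DESeq2, and with a library left out 1293 to 1469 were higher and 984 to 1252 lower. DESeq2 called 0 genes lower among the dynamin relatives, 0 lower in the ATG8 list and 0 higher in the prenylation list, where 0 were also called without the filter on low counts. With a library left out, the dynamin relatives and the ATG8 list each had 0 to 1 lower, and the prenylation list had 0 higher. The causes were not tested. Same-numbered libraries did not deviate together (correlation -0.0288 of their deviations across genes), so the replicate numbers were not taken as pairs. With the replicate block 1904 genes were higher and 1594 lower, all 9 GBP genes remained called, the ATG8 list had 2 lower and the prenylation list 2 lower. By DESeq2 the calls of Abcg3, Zfp951, Lrrc8b, Ifngr2, Dnm2, Dnm3, Map1lc3b and Pggt1b were lost (adjusted p from 0.0557 to 0.211), and without the filter those of Ifngr2 (0.0887) and Pggt1b (0.0675). In CPM, not scaled by length, Gbp2 held 20.7% of the family's total in wild type and 25.6% in cKO-labelled libraries, against 33.7% and 40.6% by FPKM, and Gbp4 held 11.7% in wild type against 6.4%. In wild-type library 2 Gbp9 (85.4 CPM) stood above Gbp2 (83.7 CPM). Gbp11 had too few counts to be tested.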
